A study of Homo sapiens with 6 samples.

Results

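The interferon regulatory factors (IRFs) were read by gene symbol in the count tables of NB4 cells, and the members described are IRF1, IRF2, IRF3, IRF4, IRF5, IRF7, IRF8 and IRF9, 8 of the 23368 symbols listed. The members were taken by name. NB4 is an established line of human acute promyelocytic leukemia and carries the PML-RARA fusion, and maltonis is a synthetic molecule built on maltol. RNA was sequenced from NB4 cells that were not treated (n.t.) and from NB4 cells exposed to 10 µM maltonis for 24 h, with 3 libraries in each group. The comparison asks how the RNA of each IRF gene differed after maltonis. All libraries come from a single cell line, a single dose and a single time point, and the labels do not say whether the n.t. cells received the water in which maltonis was dissolved.

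IRF proteins share an N-terminal DNA-binding domain that recognises the interferon-stimulated response element (ISRE). IRF3 and IRF7 are phosphorylated downstream of sensors of viral nucleic acids and drive transcription of the type I interferons. Secreted interferon then activates the ISGF3 complex, in which STAT2 and IRF9 take part and which induces the interferon-stimulated genes. In myeloid cells IRF8 is known for its part in monocyte and dendritic cell differentiation, and IRF1 acts downstream of interferon gamma on antigen presentation genes.

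The libraries held 18492154 to 38205483 counts, and a floor of 3 counts corresponds to 0.0828 to 0.160 CPM, counts scaled to a common library size. All 9 listed granulocyte precursor markers were detected, and 4 rose (ELANE, CTSG, LYZ, AZU1), 4 fell (MPO, CD33, CEBPE, CEBPA) and 1 (PRTN3) did not pass the test used below. MPO, the myeloperoxidase of the primary granules, had a mean of 14612 CPM in n.t. and 7425 CPM in maltonis-treated cells, and ELANE, the neutrophil elastase gene, had 0.129 and 17.4 CPM. Summed over each list, markers of other blood cells were lower after maltonis. The ranges went from 24.2–29.1 to 19.1–20.04 CPM for monocytes, from 3.25–5.19 to 1.28–1.81 CPM for plasmacytoid dendritic cells, from 27.1–37.0 to 12.2–13.7 CPM for B cells and from 49.5–52.4 to 18.3–19.1 CPM for T cells. By gene, 1 of 4 tested monocyte markers, 1 of 1 dendritic cell marker, 3 of 4 B cell markers and 3 of 3 T cell markers fell, and the B cell marker PAX5 rose. The defining markers CLEC4C, IL3RA, MS4A1, HBB and HBA1 had no count in any library. Whether their RNA was absent or its reads were not counted was not tested. The part of these markers in the results below was not tested. Replicate 1 of each group carries a different code in its deposited name from replicates 2 and 3, and the meaning of the code is not stated.

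RefSeq promoter windows on GRCh38.p14, from 250 bases before to 50 bases after the annotated start, were at hand for 5 of the 8 members, IRF1, IRF4, IRF5, IRF8 and IRF9. IRF5 had 4 windows, IRF8 had 2 and the others had 1 each. The IRF8 windows lie at chr16:85902580-85902879 and chr16:85902765-85903064. Whether either of them covers the main start of IRF8 was not tested. Other starts of these genes were not searched, so a missing match holds for the windows alone. The windows of IRF1 and IRF9 are shown because both genes rose after maltonis and theirs were the member windows with a match to the gamma-activated site TTCNNNGAA, the element bound by STAT dimers, which is in capitals. The IRF1 window lies at chr5:132490724-132491023 on the minus strand and the IRF9 window at chr14:24161015-24161314 on the plus strand.
IRF1: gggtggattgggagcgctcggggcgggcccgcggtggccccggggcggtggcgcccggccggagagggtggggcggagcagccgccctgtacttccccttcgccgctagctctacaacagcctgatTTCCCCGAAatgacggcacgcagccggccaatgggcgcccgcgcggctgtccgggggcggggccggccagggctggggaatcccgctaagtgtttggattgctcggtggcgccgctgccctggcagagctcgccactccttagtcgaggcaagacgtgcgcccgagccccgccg
IRF9: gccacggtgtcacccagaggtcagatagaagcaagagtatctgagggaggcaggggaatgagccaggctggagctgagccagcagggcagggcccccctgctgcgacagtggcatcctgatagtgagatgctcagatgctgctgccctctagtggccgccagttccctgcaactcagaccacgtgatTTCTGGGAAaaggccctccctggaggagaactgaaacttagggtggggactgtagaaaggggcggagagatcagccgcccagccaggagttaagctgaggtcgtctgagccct
The IRF1 match reads TTCCCCGAA and spans the bases 124 to 116 before the start, while the IRF9 match reads TTCTGGGAA and spans the bases 63 to 55 before it. The IRF9 window also holds the E-box CACGTG from 71 to 66 bases before the start, which does not overlap the gamma-activated site. Both strands were searched, and 7.66% of all 35116 promoter windows hold a gamma-activated site and 7.26% hold CACGTG. The ISRE core GAAANNGAAA, present in 3.57% of all windows, had 0 matches in the 9 windows of the 5 members. The NF-kB-like letters GGGNNNNNCC, present in 58.7% of all windows, were found in at least 1 window of each of the 5. The IRF5 windows at chr7:128940420-128940719 and chr7:128941018-128941317 had none. These are matches of letters in a window and not measured binding.

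Of the 8 IRF genes, 7 had enough counts to be tested. After maltonis IRF1, IRF3, IRF5, IRF7 and IRF9 rose and IRF8 fell at a false discovery rate (FDR) under 0.01, which makes 5 of 7 higher and 1 of 7 lower, while IRF2 did not pass the threshold. Over all 13209 genes tested 64% passed the threshold, 31.9% higher and 32.1% lower. IRF7 and IRF9 rose by at least 2.5-fold, as did 9.95% of the genes tested, and 0 members fell by as much, against 10.4% of the genes tested. The median log2(FC) of the 7 tested members was 0.53, beside 0.01 over all genes tested. For 6 of the 7, all except IRF2, the 3 maltonis libraries did not overlap the 3 n.t. libraries in CPM, which held for 76.6% of all genes tested, 38.8% higher and 37.8% lower. In these bulk libraries fewer cells with an RNA and less of that RNA per cell cannot be told apart.

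**Figure D1:**
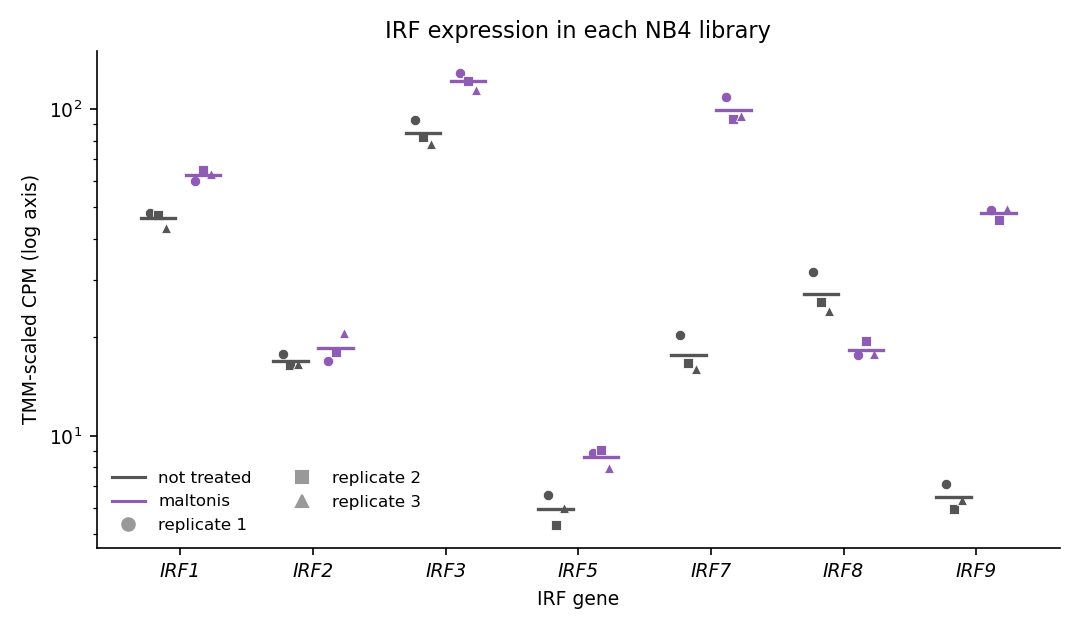
CPM of each tested IRF gene in the 3 n.t. and the 3 maltonis-treated libraries, with points for libraries and a horizontal line at each group mean. IRF7 moved from 16.0–20.3 to 93.0–109 CPM and IRF9 from 5.99–7.14 to 45.5–49.4 CPM, while IRF8 moved down from 24.2–31.6 to 17.7–19.4 CPM.

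IRF9, the DNA-binding subunit of ISGF3, changed most within the family. Its levels were 7.14, 5.99 and 6.36 CPM in n.t. replicates 1, 2 and 3 and 49.0, 45.5 and 49.4 CPM in maltonis replicates 1, 2 and 3. The lowest treated library was far above the highest untreated one. The means were 6.497 ± 0.586 and 48.0 ± 2.13 CPM (SD, n = 3 each), a 7.44-fold rise with a 95% interval of 6.46 to 8.57. The log2(FC) was 2.90 with a standard error of 0.0889 (adjusted p = 4.36e-08, quasi-likelihood test of edgeR, adjusted after Benjamini and Hochberg), rank 280 from the highest of the 13209 genes. IRF9 was the member nearest to the top of that order.

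IRF7, the interferon-inducible activator of the interferon alpha genes, was next. The libraries read 20.3, 16.7 and 16.0 CPM without treatment and 109, 93.0 and 95.2 CPM after maltonis, again without overlap. The mean went from 17.6 ± 2.32 to 99.0 ± 8.59 CPM (SD, n = 3 each), 5.64-fold with a 95% interval of 4.75 to 6.69. The log2(FC) of IRF7 was 2.496 ± 0.108 (SE) with an adjusted p of 2.00e-07 in the quasi-likelihood test of edgeR, rank 408 from the highest.

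IRF3, which is constitutively expressed and acts first after nucleic acid sensing, was far above the detection floor in every library. It stood at 92.7, 81.7 and 78.3 CPM in n.t. cells and at 128, 121 and 114 CPM after maltonis, so that the groups lay apart. The rise was 1.44-fold with a 95% interval of 1.27 to 1.64 (log2(FC) 0.53, adjusted p = 0.000325, quasi-likelihood test of edgeR). IRF3 was thus called with a rise smaller than those of IRF7 and IRF9, whose intervals lie entirely above its own.

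IRF5, an activator downstream of Toll-like receptors, had the lowest per-length level of the tested members. Its libraries gave 6.605, 5.33 and 6.03 CPM without and 8.83, 9.04 and 7.99 CPM with maltonis. The groups did not overlap and the rise was 1.45-fold (95% interval 1.21 to 1.74, log2(FC) 0.54, adjusted p = 0.00262, quasi-likelihood test of edgeR). This call rested on 2 libraries: the adjusted p of the same edgeR test was 0.0152 without n.t. replicate 2, with a log2(FC) of 0.45, and 0.0170 without maltonis replicate 2, with a log2(FC) of 0.47.

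IRF1 and IRF2 were first described as an activator and a repressor on the same sites. IRF1 gave 48.0, 47.2 and 43.3 CPM in n.t. and 60.3, 65.1 and 63.3 CPM in treated libraries, without overlap. It rose 1.36-fold (95% interval 1.22 to 1.52, log2(FC) 0.45, adjusted p = 0.000345, quasi-likelihood test of edgeR). IRF2 gave 17.7, 16.5 and 16.6 CPM without and 16.9, 17.99 and 20.6 CPM with maltonis, and here the groups overlapped. Its log2(FC) was 0.14 with a 95% interval from −0.08 to 0.35, which still allows a rise of up to 1.27-fold (adjusted p = 0.219, quasi-likelihood test of edgeR).

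IRF8 was the member that fell. Its libraries read 31.6, 25.6 and 24.2 CPM without treatment and 17.7, 19.4 and 17.7 CPM after maltonis, with every treated library below every untreated one. The treated level was 0.679 of the untreated one (95% interval 0.570 to 0.808, log2(FC) −0.56, adjusted p = 0.00157, quasi-likelihood test of edgeR). IRF8 stood at rank 3416 from the lowest of the 13209 genes, so the change lay near the edge of the middle 50% of genes, whose log2(FC) ran from −0.58 to 0.60.

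IRF4, the lymphoid member, had too few counts for the test. It had 1, 2 and 5 counts in n.t. and 7, 10 and 8 in maltonis libraries. Every IRF4 count was higher after maltonis than before. Pooled over libraries, IRF4 had 8 against 25 counts, a ratio of rates of 3.40 (95% exact interval 1.49 to 8.72). The interval covers counting error only, and IRF4 carries no call.

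**Figure D2:**
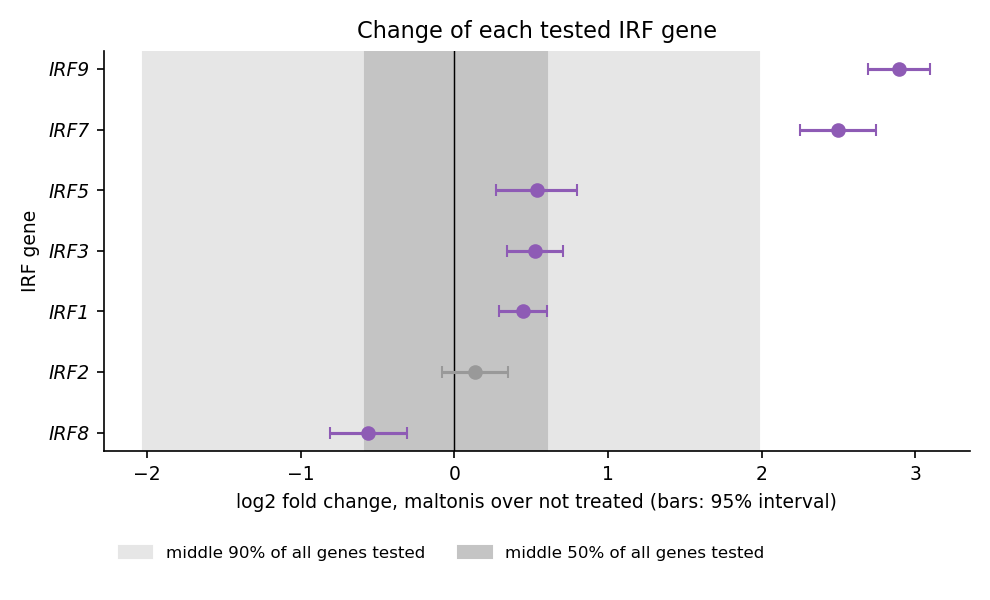
Log2 fold change of each tested IRF gene, maltonis over n.t., with its 95% interval, drawn over bands that hold the middle 50% and the middle 90% of the 13209 genes tested. IRF9 at 2.90 and IRF7 at 2.496 lie outside both bands, whereas IRF1, IRF2, IRF3, IRF5 and IRF8 lie between −0.56 and 0.54.

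The changes were also read inside each code of the library names, as differences of log2(CPM + 0.5). For IRF9 they were 2.70 in replicate 1 and 2.84 in replicates 2 and 3, and for IRF7 2.39 and 2.49. For IRF3 they were 0.47 and 0.55, for IRF5 0.39 and 0.54 and for IRF1 0.32 and 0.50. The called rises thus had 1 sign in both codes. IRF8 differed by −0.82 in replicate 1 and by −0.41 in replicates 2 and 3, and IRF2 by −0.06 and 0.22, the single tested member whose sign differed.

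Ratios of counts between members of the same library do not depend on scaling. The IRF9 to IRF8 ratio was 0.226 to 0.263 in n.t. libraries and 2.34 to 2.78 after maltonis, so that the member with fewer counts became the one with more. The IRF7 to IRF3 ratio went from 0.204–0.219 to 0.766–0.848. The IRF1 to IRF2 ratio moved less, from 2.62–2.87 to 3.07–3.62, and still did not overlap.

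Levels were compared between members per length, as RPKM, the CPM divided by the summed exon length in kilobases. In n.t. cells IRF3 was highest at 22.2 ± 1.98 RPKM (SD, n = 3). IRF7 at 6.72 ± 0.881, IRF1 at 5.92 ± 0.322, IRF2 at 5.43 ± 0.226 and IRF8 at 5.26 ± 0.769 RPKM followed, and the library ranges of neighbours in this order overlapped. IRF9 with 1.71 ± 0.154 and IRF5 with 1.37 ± 0.146 RPKM were well below them. After maltonis the order was IRF7 with 37.7 ± 3.27, IRF3 with 31.95 ± 1.91, IRF9 with 12.6 ± 0.560, IRF1 with 8.06 ± 0.311, IRF2 with 5.94 ± 0.610, IRF8 with 3.55 ± 0.192 and IRF5 with 1.97 ± 0.127 RPKM. IRF9 thus passed IRF1, IRF2 and IRF8 in this order. By this length IRF8 no longer overlapped IRF2, whose mean was above that of IRF8 in both groups. Summed over the 8 members the level was 45.3 to 53.5 RPKM in n.t. and 99.3 to 107 RPKM in treated libraries, and IRF7 and IRF9 together made up 16.9 to 17.9% and 47.7 to 50.9% of it. The places of IRF7 and IRF8 depend on the length used. With the longest basic transcript, a length chosen after the data were seen, IRF3 led after maltonis too, with 39.0% of the family against 27.0% for IRF7. By that length IRF8 was above IRF2 in n.t. cells, at means of 8.96 and 7.35 RPKM. After maltonis IRF8 was below it, at 6.04 and 8.04 RPKM.

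**Figure D3:**
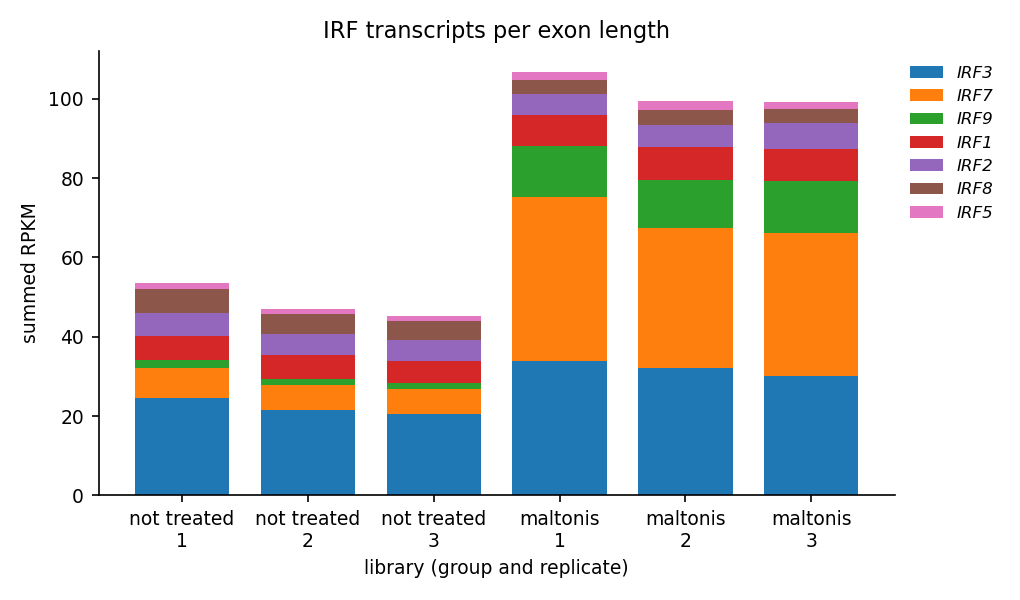
Per-length level (RPKM over summed exons) of the IRF genes in each of the 6 libraries, stacked to the family sum, with IRF4 too low to draw. The sum rises from 45.3–53.5 to 99.3–107 RPKM, and the IRF7 and IRF9 blocks together grow from 16.9–17.9% to 47.7–50.9% of it.

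Over the 6 libraries, the profiles nearest to that of each called member were taken among 10094 genes as the root mean square difference of log2 CPM centred on each gene's mean. IRF9 was nearest to LYSMD1 (0.0664), C1RL (0.0799) and BTN2A3P (0.0919), and IRF7 to RELL2 (0.0681), SYT11 (0.0690) and H2AFJ (0.0857). For the members with smaller changes, IRF1 was nearest to CASP8 (0.0207), BUD13 (0.0221) and ZNF430 (0.0244), IRF3 to FAM73B (0.0176), C21orf2 (0.0253) and SQSTM1 (0.0261), and IRF5 to KIAA2026 (0.0416), ZNF45 (0.0527) and MOSPD2 (0.0534). IRF8 was nearest to DES (0.0411), WDR74 (0.0441) and WDR73 (0.0469). These are descriptions of likeness over 6 libraries that share their groups and their depth.

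The genes next to the members were read from the reference annotation, since counts of overlapping genes can be shared. IRF9 lies between RNF31, a subunit of the linear ubiquitin ligase, and REC8, a meiotic cohesin, and both rose, RNF31 from 58.0 to 139 CPM (log2(FC) 1.26) and REC8 from 1.42 to 9.61 CPM (2.78). Next to IRF1, C5orf56, which overlaps it on the opposite strand in GENCODE, rose from 0.465 to 2.73 CPM (2.53), and the repair gene RAD50 fell (−1.31). Beside IRF8, COX4I1, a subunit of cytochrome c oxidase, fell with a log2(FC) of −0.64. BCL2L12, which overlaps IRF3 on the opposite strand, went from 24.3 to 41.0 CPM without passing the threshold (log2(FC) 0.74, adjusted p = 0.0192, quasi-likelihood test of edgeR), although it passed without n.t. replicate 1 with a log2(FC) of 0.46 (adjusted p = 0.000384), and with all libraries under total-count scaling, without the filter, with the replicate block and with DESeq2. The genes flanking IRF7, PHRF1 at 0.31 and CDHR5 at 0.66, and those flanking IRF5, ATP6V1F at 0.24 and TNPO3 at 0.06, did not pass it. PHRF1 did pass without n.t. replicate 1 (0.35). With all libraries it passed under total-count or upper-quartile scaling, without the filter, with the replicate block and with DESeq2. ATP6V1F passed without n.t. replicate 1 (0.33) and with the replicate block. With replicates 2 and 3 alone BCL2L12 (0.44), PHRF1 (0.27) and ATP6V1F (0.26) all passed. PHRF1 and ATP6V1F thus stood near the threshold. The libraries were made with a stranded kit, but whether counting used the strand is not given in the sources used here, so the values of IRF1 and IRF3 and of their overlapping partners are uncertain.

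**Figure D4:**
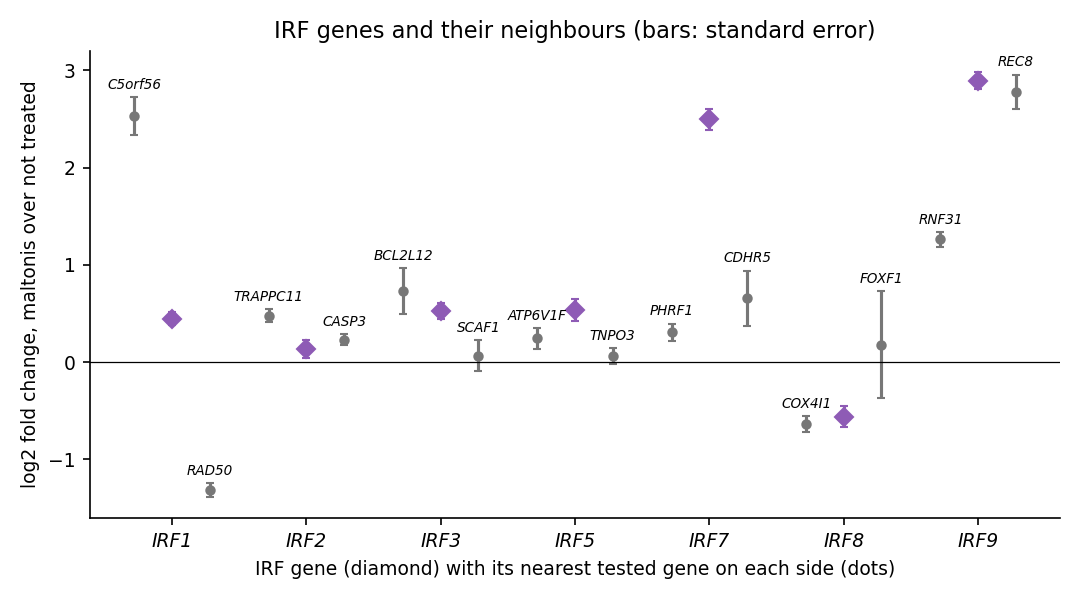
Log2 fold change, maltonis over n.t., of each tested IRF gene (diamonds) and of its nearest tested genes (dots), with bars for the standard error. REC8 at 2.78 and RNF31 at 1.26 lie on the same side of 0 as IRF9, C5orf56 at 2.53 lies above IRF1 and RAD50 at −1.31 below it.

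The other genes of the pathway were taken from hand-written lists. Their numbers of calls stand beside 31.9% higher and 32.1% lower over all genes tested. Upstream of IRF3, IRF5 and IRF7, 19 adaptors and kinases were tested, of which 8 rose, 8 fell and 3 (MYD88, IRAK1, TBKBP1) did not pass the threshold, with a median log2(FC) of −0.00. The kinases that phosphorylate IRF3 and IRF7 went apart: TBK1 rose with a log2(FC) of 0.60, from 71.7–81.3 to 107–120 CPM, and IKBKE fell with −1.38, from a mean of 117 to 45.2 CPM. TRAF3, the ubiquitin ligase that links sensors to these kinases, fell from 83.7 to 13.98 CPM (−2.58). The IRF5 adaptor TASL, listed as CXorf21, rose by 1.57 on the log2 scale, the Toll-like receptor adaptor TIRAP by 1.56 and the mitochondrial adaptor MAVS by 0.56. MYD88, the adaptor for IRF5 and IRF7 below most Toll-like receptors, had 32, 458 and 596 counts in n.t. and 86, 372 and 381 in treated libraries, and replicate 1 was low in both groups.

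Among 15 partners and coactivators 3 rose (STAT2, RELA, ATF2), 9 fell and 3 (SPIB, CREBBP, EP300) did not pass, with a median log2(FC) of −0.62. Over all genes tested 31.9% rose and 32.1% fell. With each library left out in turn, 2 to 3 partners rose and 7 to 8 fell. STAT2, a partner of IRF9 in ISGF3, rose with it. STAT2 read 58.0, 57.4 and 55.8 CPM in n.t. and 200, 195 and 200 CPM in treated libraries (log2(FC) 1.80, adjusted p = 3.83e-08, quasi-likelihood test of edgeR), without overlap between the groups. PU.1, the partner of IRF4 and IRF8 encoded by SPI1, fell with IRF8, from 82.6, 72.5 and 71.7 to 64.4, 42.7 and 40.8 CPM (−0.62). The SPI1 call was lost without n.t. replicates 1, 2 or 3 or without maltonis replicates 2 or 3, each left out alone, with log2(FC) values of −0.66 to −0.53 and adjusted p-values of 0.0120 to 0.0284 in the same edgeR test. With all libraries it was lost under total-count scaling (−0.50, adjusted p = 0.0223) and upper-quartile scaling (−0.53, adjusted p = 0.0144). In the same edgeR test the SPI1 call held without maltonis replicate 1 (−0.87, adjusted p = 7.85e-05). It also held there with replicates 2 and 3 alone (−0.79, adjusted p = 1.07e-06), and with all libraries under the replicate block and DESeq2. The ATF2 call was lost without n.t. replicates 2 or 3 or maltonis replicates 2 or 3, with log2(FC) values of 0.23 to 0.26 and adjusted p-values of 0.0134 to 0.0268 in that edgeR test. The ATF2 call held there without replicate 1 of either group, and with replicates 2 and 3 alone (0.36, adjusted p = 5.87e-05). BATF3, which pairs with IRF4 and IRF8 at composite sites, fell from 6.09 to 0.217 CPM (−4.67) and JUN by 2.04 on the log2 scale.

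Of 11 genes that limit IRF signalling, 4 rose (SOCS1, USP18, RBCK1, TRIM21), 4 fell (FOXO3, EIF4EBP1, TRIM28, ATF4) and 3 did not pass, with a median of −0.18. The shares over all genes tested were 31.9% higher and 32.1% lower. SOCS1, which inhibits Janus kinases, rose by 3.07, USP18, which blocks the interferon receptor, by 1.51, and FOXO3, a repressor of IRF7 transcription, changed by −1.29. The IRF2-binding corepressors did not pass, with log2(FC) values of 0.14 for IRF2BP1, −0.18 for IRF2BP2 and −0.18 for IRF2BPL, and neither did IRF2 itself.

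Of 21 interferon genes 12 had no count in any library, and 1, IFNB1, could be tested. IFNB1, the interferon beta gene on which IRF3 and IRF7 act, had 3, 3 and 3 counts in n.t. and 19, 17 and 14 counts in maltonis libraries. The groups lay apart at very low counts, with pooled counts of 9 and 50 and a ratio of rates of 6.04 (95% exact interval 2.94 to 13.97, counting error only). IFNB1 passed the filter on low counts through the treated libraries, where it is higher, so the fitted log2(FC) of 2.56 (adjusted p = 0.00102, quasi-likelihood test of edgeR) is given as a description. Any count at all was seen for 5 interferon genes in n.t. and 9 in treated cells. IFNA4, IFNA7 and IFNA17, counted in treated cells alone, had 1 pooled count each, and IFNA13 had 3. Of all 23368 symbols, 15173 to 15765 had a count in single n.t. libraries and 15904 to 16470 in single treated libraries.

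Of 24 listed targets of ISGF3, the complex that holds IRF9, 21 had enough counts to be tested. IFI27, IFI44 and IFI44L did not. All 21 tested rose and 18 of them by at least 2.5-fold, with a median log2(FC) of 2.32. Over all genes tested 31.9% rose, and 9.95% rose by at least 2.5-fold. OAS3, a sensor of double-stranded RNA, rose by 5.34, the antiviral GTPase MX1 by 4.002 and the antiviral enzyme RSAD2 by 3.94 on the log2 scale. In n.t. libraries MX1 had 5, 13 and 9 counts and RSAD2 had 7, 8 and 11. Among 19 tested of 26 listed IRF1 targets 16 rose, 0 fell and 3 (PSMB8, B2M, TNFSF10) did not pass, with a median of 1.05. CD274, which encodes PD-L1, rose most there, with 6, 10 and 5 counts in n.t. and 71, 107 and 115 in treated libraries (3.90). The GTPase GBP1 (3.29), with 0, 4 and 3 counts in n.t., and SOCS1 (3.07), also in the list of limiting genes, came next. MX1, RSAD2, CD274 and GBP1 passed the filter on low counts through the treated libraries, where they are higher. Their rises are given as a description, and the counts of rising targets include them. PSMB8, at a log2(FC) of −0.20, had an adjusted p of 0.0132 in the quasi-likelihood test of edgeR, and it passed in the lower direction without n.t. replicate 3, with the replicate block and with DESeq2.

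The listed targets of IRF8, the member that fell, were mixed: 7 of 12 rose, 2 (PTPN13, CTSC) fell and 3 (IL12B, NF1, PML) did not pass, with a median of 0.60. The repressor BCL6 rose by 1.28 and the protease gene CTSS by 0.81, while the phosphatase PTPN13 changed by −1.62. Of 8 tested genes listed as targets of IRF4 or IRF5, 1 rose (PRDM1), 4 fell (CCL4, CCL3, TNF, CCL5) and 3 (IL12B, IL23A, XBP1) did not pass, with a median of −0.89. The chemokines CCL4 and CCL3 changed by −4.59 and −3.89 and the cytokine TNF went from a mean of 116 to 18.7 CPM (−2.63). IRF5 itself had risen, and IRF4 was close to the detection floor. These counts stand beside 31.9% higher and 32.1% lower over all genes tested, and membership in a target list was set by hand and not by binding in these cells.

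**Figure D5:**
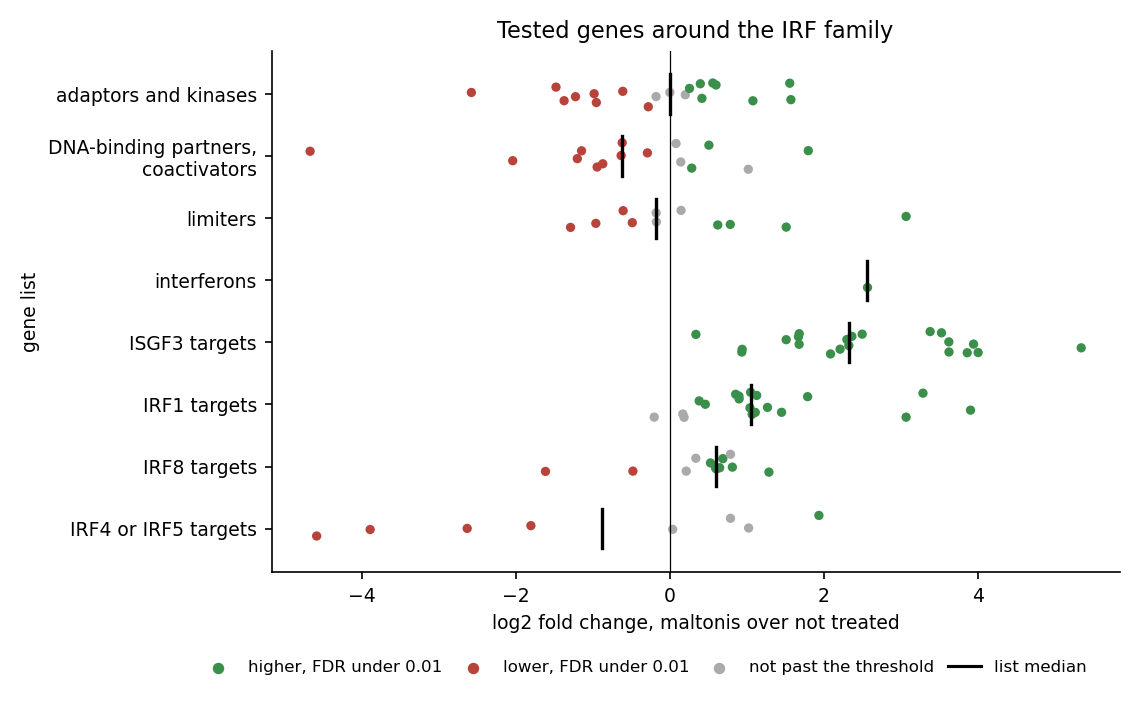
Log2 fold change, maltonis over n.t., of every tested gene of the 8 lists around the IRF family, coloured by call at an FDR under 0.01, with a line at each list's median. All 21 tested ISGF3 targets lie above 0 with a median of 2.32, whereas the adaptors and kinases spread on both sides with a median of −0.00.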

How the data were processed

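Total RNA of 6 NB4 libraries was sequenced after a stranded total RNA preparation. The authors deposited 1 table of raw counts per library, whole numbers of reads per gene symbol. The submitters' processing notes name TopHat, Bowtie2, HTSeq and hg19, with no role, and the strand setting is not given in the sources used here. Groups and replicate numbers come from the labels. The study's results call the libraries of a group biological replicates, while the labels do not say that they came from separate cultures. Replicate pairs differed by more than sampling noise (chi-square per degree of freedom 4.15 to 33.1).

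Differential expression used edgeR 4.0.16 under R 4.3.3, with TMM scaling, filterByExpr and a quasi-likelihood fit to all 6 libraries that held the group alone, and p-values were adjusted after Benjamini and Hochberg over 13209 genes (FDR under 0.01). Genes near the floor in 1 group, such as ELANE in n.t. and BATF3 and CCL4 in treated libraries, passed the filter through the other group. A rise of at least 2.5-fold is a log2(FC) of 1.32. Every log2(FC) comes from this fit unless named otherwise, 95% intervals are log2(FC) ± t × SE, and CPM values use TMM-scaled totals. Tests were first run on simulated data. RPKM used summed exons of GENCODE version 29 (GRCh38), promoters are RefSeq windows (GRCh38.p14), and no coordinates were converted from hg19. Protein sequences were not used here. Intervals on pooled counts are exact, two-sided and cover counting error only.

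Named genes are all members, the 3 largest called changes of each list, STAT2, SPI1, TBK1, IKBKE, MAVS, MYD88, the IRF2-binding proteins and IFNB1, the 3 nearest profiles of each called member among genes with a mean of at least 5 CPM, and the nearest tested neighbours. Other genes behind small counts of calls, and MPO and the defining markers, were chosen after their values were seen. The members and lists were chosen with earlier results of these data known. Some genes of the family and of the lists are not reported here and were left out of list counts and family sums. USP18, SOCS1 and IL12B are each in more than 1 list. Alternatives covered scaling, DESeq2 1.42.0, filters, the FDR, the replicate block, libraries left out and gene length.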

Additional observations from a re-analysis of the deposited data

How the results depend on the processing

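Over 15 fits the log2 changes ranged from 2.83 to 3.01 for IRF9, 2.40 to 2.61 for IRF7, 0.46 to 0.65 for IRF3, 0.45 to 0.66 for IRF5, 0.39 to 0.56 for IRF1, 0.02 to 0.25 for IRF2 and −0.64 to −0.42 for IRF8, and all calls except that of IRF5 held. Leaving out each library gave 4 to 5 members higher and 1 lower, and IRF5 lost its call without n.t. replicate 2 (0.45) and without maltonis replicate 2 (0.47); the cause was not tested. Scaling to total counts moved the median of all genes by 0.12 and the share of calls that were higher from 49.8% to 57.3%.

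The IRF1 targets that fell were 0 in the result given, 1 (PSMB8) with the replicate block, 1 with DESeq2, 1 at an FDR under 0.05, and 0 to 1 when each library was left out. With a filter of 1 CPM in 3 libraries the interferon genes called were 0, since IFNB1 was no longer tested. Leaving out each library gave 6 to 8 adaptors and kinases higher and 7 to 8 lower. For the partners it gave 2 to 3 higher and 7 to 8 lower, and for the limiting genes 4 higher and 4 lower. The targets called higher were then 20 to 21 for ISGF3, 16 to 18 for IRF1 and 5 to 7 for IRF8. Same-numbered libraries correlated at 0.301, 0.0852 and 0.161 in their deviations from the group means. Differently numbered libraries correlated at −0.232 to −0.162 where 1 of them was a replicate 1. Between replicates 2 and 3 the values were 0.123 and 0.139. Replicate 1 thus stood apart in both groups, as it does in its name code, and the numbers are not taken as pairs. The main fit held neither the code nor the number. The replicate block called 9222 genes in place of 8452 and gave 5 members higher and 1 lower.

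Per-length shares of the family moved with the longest transcript, from 45.7% to 52.7% for IRF3 and from 13.8% to 9.36% for IRF7 in n.t. cells. A coding length from protein sequences and identities between member proteins were planned and not run. Fits without a filter gave IRF4 a log2 change of 1.72 (adjusted p = 0.0207, quasi-likelihood test of edgeR). At these depths IRF4 lies near the 3-count floor.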
